A study of Mus musculus with 5 samples.

Results

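The genes described here encode the nuclear-made subunits of the mitochondrial respiratory chain, complexes I to V. They were chosen by symbol alone: every protein-coding mouse gene whose symbol starts with Nduf followed by a, b, c, s or v, or with Uqcr, Cox4 to Cox8 or Atp5, and Sdha to Sdhd. The rule took in 93 of the 51912 genes in the tables, and no expression value entered it. Of the 93 genes, 84 encode subunits: 36 of complex I, 4 of complex II, 8 of complex III, 20 of complex IV and 16 of complex V. The other 9 are 8 Ndufaf genes, whose products assemble complex I, and Atp5s, coupling factor B of the ATP synthase. A further 12 symbols matched by name but are annotated as pseudogenes or non-coding and were left out. Among those, Ndufb1-ps had levels of 15.0 and 27.01 CPM (library-scaled counts in the usual unit of that name) in control tissue against 26.6, 36.1 and 19.1 CPM in Ghr deletion tissue, with overlapping groups, and the others had few reads or none apart from Ndufb4c.

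Complex I takes electrons from NADH and complex II takes them from succinate, and both pass them to ubiquinone. Complex III passes them on to cytochrome c and complex IV to oxygen. Complexes I, III and IV pump protons, and complex V, the ATP synthase, makes ATP as the protons flow back. All but complex II also hold subunits encoded in the mitochondrial genome, so each machine draws on nuclear and mitochondrial transcripts. Luminal cells of the prostate are known for secreting citrate instead of oxidizing it fully.

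RNA came from the tissue labelled dorsolateral prostate of 5 male mice aged 7 months, all Ghr flox/flox and SV40 C3(1) T-antigen +/0. Ghr encodes the growth hormone receptor, and the transgene expresses a viral oncoprotein from a promoter active in the prostate. Each mouse was dosed with tamoxifen, 250 mg/kg a day over 5 days, and its tissue was collected 1 month after dosing ended. The 3 Ghr deletion mice also carried ROSA26Cre-ERT2 +/0, a Cre recombinase that tamoxifen switches on and that is driven from a broadly active locus. No Cre is listed for the 2 tamoxifen controls, so carrying Cre and losing Ghr cannot be told apart. The series calls the libraries of each group biological replicates.

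Total expected counts per library ranged from 13812454 to 47656212. The tissue label was only partly borne out by the marker genes. The luminal keratin gene Krt8 was present in every library at 116 to 242 CPM, but it marks luminal epithelium and is not a prostate marker. Of 4 luminal genes (Krt8, Krt18, Krt19 and Epcam), 2 had log2 fold changes above 0 and 2 below. The summed level of 6 prostate genes was 4435 and 138 CPM in control tissue against 8.31, 29.5 and 161 CPM in Ghr deletion tissue, most of it from Spink1 in control 1 and from Mmp7 in the other 4 libraries. Pbsn, a secretory gene of the prostate, had 411 counts in control 1 and 8 or fewer in the others. The summed level of 4 vas deferens and epididymis genes, nearly all from Akr1b7, was 4.92 and 891 CPM in control tissue against 3486, 3251 and 9.45 CPM in Ghr deletion tissue. The summed level of 8 seminal vesicle genes was 718839 and 18549 CPM in control tissue against 274346, 341370 and 8845 CPM in Ghr deletion tissue. These sums overlapped, but 5 of the 8 genes were lower in every deletion library, beside 10.2% of all tested genes. At an adjusted p under 0.05, edgeR called 0 of the 8, beside 0% of all tested genes. DESeq2 called 5, beside 0.892%. All 4 markers of dividing cells, Top2a, Mki67, Cdk1 and Ccnb1, had lower values in the 3 deletion libraries, beside 10.2% of all tested genes. Their summed levels were 178 and 35.4 CPM in control tissue against 4.87, 9.05 and 4.08 CPM in Ghr deletion tissue. At an adjusted p under 0.05, edgeR called 0 of the 4, beside 0% of all tested genes. DESeq2 called all 4, beside 0.892%. Ghr itself stood at 14.4 and 31.3 CPM in control tissue against 8.13, 20.9 and 12.1 CPM in Ghr deletion tissue. The Ghr groups overlapped, and the log2 fold change of -0.73 (SE 0.52) did not pass the test (edgeR quasi-likelihood, Benjamini-Hochberg adjusted p = 0.995).

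The comparison asks how transcripts of the tissue differed between Ghr deletion and control mice. None of the respiratory chain genes passed the test. The subunit genes lay on average slightly higher in the deletion libraries, the 78 tested subunit genes having a median log2 fold change of 0.22, with 56 above and 22 below 0. Without deletion 2 the median was -0.02, with 35 of the 78 genes above 0. Without deletion 3 it was 0.35, and on log2(TPM + 1) with limma it was 1.22, where the median of all genes was 0.54. The median over all 18615 tested genes was 0.004 in the fit of all 5 libraries, and it was -0.001 without deletion 2. In these bulk samples, fewer cells of a type and less RNA per cell cannot be told apart.

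Of the 93 genes, 87 passed the filter on low counts, which asks for enough reads in at least as many libraries as the smaller group holds. The 6 that did not pass were Cox4i2, Cox6a2, Cox7b2, Cox8b, Cox8c and Ndufa4l2, all complex IV forms made in few tissues or conditions. With edgeR's quasi-likelihood test at an adjusted p under 0.05, 0 of the 87 were called, beside 0% of all tested genes. At an unadjusted p under 0.05 the count was also 0 of 87, beside 4.92% of all tested genes. DESeq2 called 0 of the 87, beside 0.892% of all genes, and limma-voom called 0 of them. The smallest unadjusted p among the 87 was 0.053 (edgeR, adjusted p = 0.991), for Ndufa12.

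The precision of 2 against 3 libraries limits this result. The median SE of a subunit gene's log2 fold change was 0.36 and its 95% interval reached a median of 0.87 to each side. All 78 intervals held 0, and 18 of them lay wholly inside a 2-fold change in either direction. The other intervals reached past a 2-fold change. The fold changes themselves were close together. They ran from -0.56 to 0.77 with an SD of 0.29 across subunit genes, where the 8008 tested genes with a mean of 10 to 400 CPM had an SD of 0.68. Similar lists were also narrow. The SD was 0.19 for the tricarboxylic acid cycle, 0.31 for assembly factors, and 0.32 and 0.39 for the mitochondrial and cytosolic ribosomes.

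**Figure D1:**
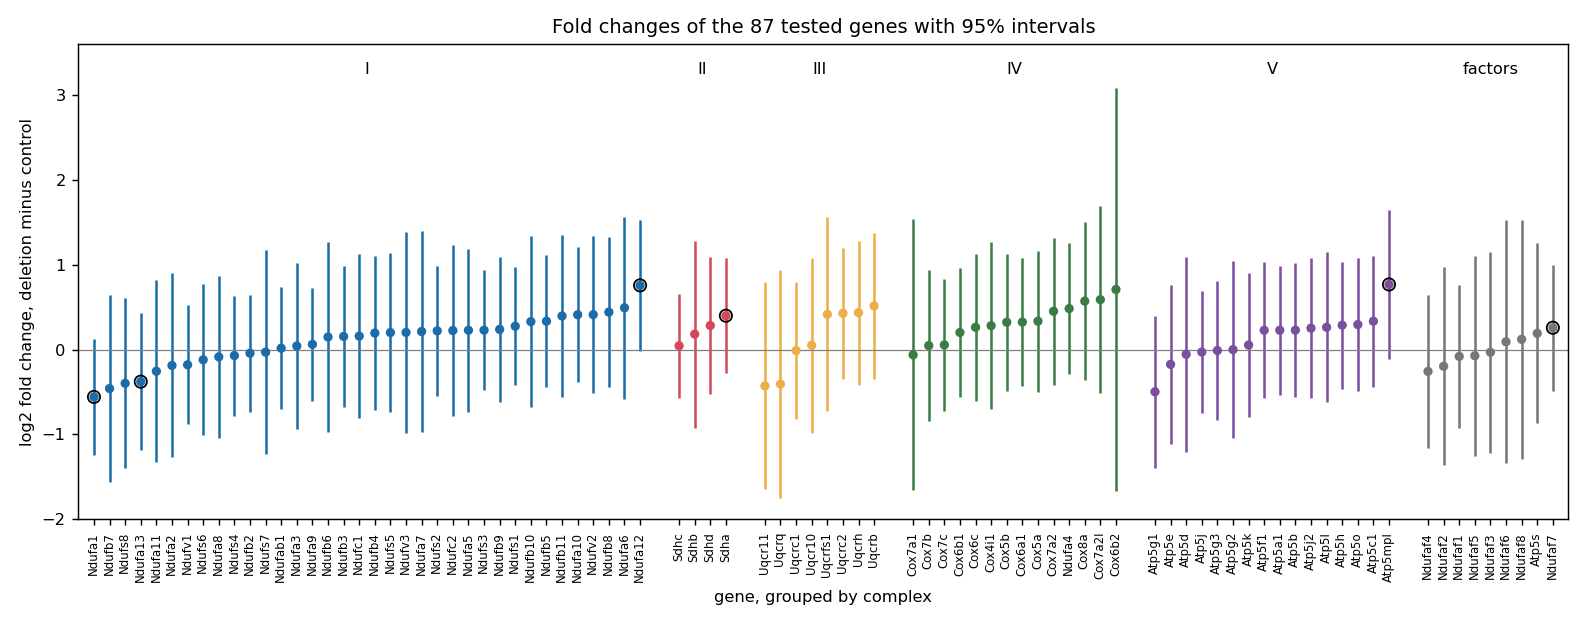
Log2 fold change (deletion minus control) of the 87 tested genes, with 95% intervals as vertical lines, grouped by complex; the last group holds the 8 Ndufaf genes and Atp5s. Black rings mark the 6 genes whose 2 groups of libraries did not overlap, and every interval includes 0.

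Groups of libraries that do not overlap were seen for 6 of the 87 genes, beside 19.6% of all tested genes. Of these, 4 were higher in every deletion library (Ndufa12, Sdha, Atp5mpl and Ndufaf7), beside 9.43% of all genes. The other 2 were lower in every deletion library (Ndufa1 and Ndufa13), beside 10.2% of all genes. Among the genes below the filter, Cox4i2 and Ndufa4l2 also had lower levels in all 3 deletion libraries, from counts of 10 or fewer.

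The subunit genes moved together from library to library more than they differed between groups. Deletion 2 held the highest level for 59 of the 78 subunit genes and deletion 3 the lowest for 48, while control 1 was the lowest for 23. Deletion 2 was above deletion 3 for 75 of the 78, by a median of 0.76 on the log2 scale, a difference inside 1 group that exceeded the median difference between groups. The median deviation of a subunit gene from its own 5-library mean of log2(CPM + 0.5) was -0.15 and -0.06 in control tissue against 0.08, 0.46 and -0.33 in Ghr deletion tissue. Each of the 5 complexes had its highest median deviation in deletion 2, between 0.39 for complex II and 0.55 for complex III. The summed level of the 84 genes was 3088 and 3320 CPM in control tissue against 3588, 4797 and 2877 CPM in Ghr deletion tissue, so deletion 3 was lowest and deletion 2 highest.

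**Figure D2:**
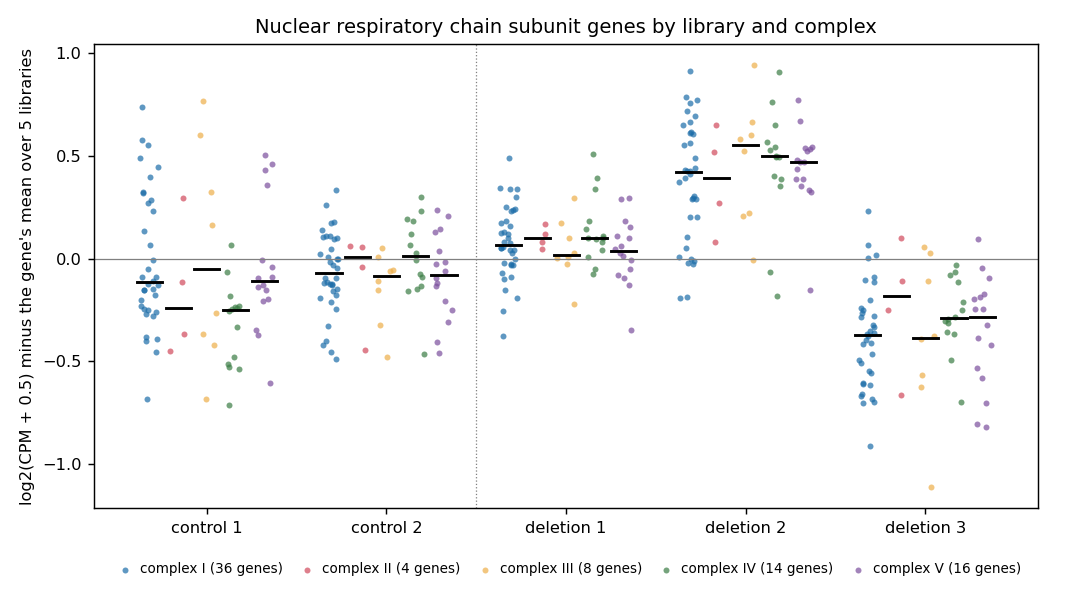
Deviation of each tested subunit gene from its own mean over the 5 libraries, in log2(CPM + 0.5), by library and complex; points are genes and black bars are medians. The medians of all 5 complexes are highest in deletion 2, and in deletion 3 they lie below 0.

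Deletion 2 was also the highest library for many other housekeeping genes. It was highest for 56 of 76 cytosolic ribosome genes, 44 of 78 mitochondrial ribosome genes and 8 of 14 genes of the tricarboxylic acid cycle. It was highest for 3205 of the 8008 genes with a mean of 10 to 400 CPM, and for 5009 of all 18615. Levels of cell type markers stood apart in deletion 2 as well. The summed level of 4 luminal keratin and adhesion genes (Krt8, Krt18, Krt19, Epcam) was 1332 CPM there, against 644 to 1034 CPM in the other 4 libraries, though only 1 of the 4 genes was highest in deletion 2. The summed level of 5 smooth muscle genes was 1168 CPM there, against 1690 to 4243 CPM in the others. Some marker lists also leaned to 1 side between the groups, though edgeR called 0 genes in any of them. The sum of 5 fibroblast genes was 298 and 476 CPM in control tissue against 217, 68.7 and 184.9 CPM in Ghr deletion tissue. For 4 endothelial genes it was 50.9 and 53.3 CPM in control tissue against 24.6, 21.0 and 28.0 CPM in Ghr deletion tissue. All 5 fibroblast, 4 endothelial, 4 macrophage, 4 T cell and 4 basal genes had log2 fold changes below 0, beside 9225 of all 18615 tested genes. All 7 tested skeletal muscle, 3 urothelium and 3 adipocyte genes were above 0, beside 9390 of all 18615. The summed levels of the basal, skeletal muscle, urothelium and adipocyte lists overlapped between the groups. The part of these cell types in the subunit levels was not tested.

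Promoters of some subunit genes hold short motifs known from respiratory genes, and a few are shown for genes that appear in the results below. Of the 84 subunit genes, 67 had a promoter in the RefSeq-based table for GRCm38.p6, which spans 250 bases before to 50 after each start. The palindrome bound by NRF1, a nuclear regulator of respiratory genes, is the run of capitals in the Atp5g2 sequence; it was found in 5 of the 67 (7.46%), against 2.13% of promoters of all tested protein-coding genes and 1.07% of all promoters of the table. The looser form, with any base in the sixth place, takes in every exact match and was in 17 (25.4%), against 10.5% and 5.19%. CCGGAAG, the core bound by ETS factors such as GABPA, was in 16 (23.9%), against 18.4% and 9.93%. AAGATGGC, bound by YY1, was in 9 (13.4%), against 4.77% and 3.19%. The 4 tissue forms of complex IV with a promoter in the table held none of these motifs. In the sequences, the 100 bases before the start are given 5′ to 3′ on the gene's own strand, and capitals mark the looser form; all motifs were searched on both strands.
Ndufa11: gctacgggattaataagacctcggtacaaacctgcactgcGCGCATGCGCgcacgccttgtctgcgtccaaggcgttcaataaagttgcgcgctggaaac
Ndufa12: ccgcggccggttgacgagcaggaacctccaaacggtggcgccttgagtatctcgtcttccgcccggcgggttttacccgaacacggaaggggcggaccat
Sdha: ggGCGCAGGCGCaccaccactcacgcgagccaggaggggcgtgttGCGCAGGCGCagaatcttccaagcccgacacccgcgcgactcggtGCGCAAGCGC
Atp5g1: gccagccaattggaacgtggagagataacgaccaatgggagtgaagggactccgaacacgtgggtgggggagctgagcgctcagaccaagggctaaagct
Atp5g2: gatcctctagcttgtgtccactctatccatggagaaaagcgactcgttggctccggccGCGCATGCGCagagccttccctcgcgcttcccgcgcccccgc
Atp5g3: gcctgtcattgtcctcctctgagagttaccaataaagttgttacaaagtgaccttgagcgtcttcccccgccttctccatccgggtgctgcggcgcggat
These windows are chr17:56717662-56717761 and chr10:94198935-94199034 on the plus strand and, on the minus strand, chr13:74350241-74350340, chr11:96075632-96075731, chr15:102671048-102671147 and chr2:73911327-73911426. They show the subunit of complex I with the lowest level per length, the subunit gene with the smallest p, the flavoprotein of complex II and the 3 genes for subunit c, which encode the same mature protein. The motif stands once each in Ndufa11 and Atp5g2 and 3 times in Sdha. It is not in these 100 bases of Ndufa12, Atp5g1 and Atp5g3, but Atp5g3 holds it once within the 50 bases after its start. A match is a description of the letters and does not show that a factor binds there. The starts are those of RefSeq, while gene spans in this report are from GENCODE M21. By those spans, the windows of Ndufa12 and Atp5g2 lie wholly inside their genes, and those of Sdha and Atp5g1 lie partly inside.

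Complex I had 36 tested subunit genes, 24 above and 12 below 0, with a median log2 fold change of 0.18. The 7 core subunits carry out the catalysis and bind the flavin and iron-sulfur clusters. Their fold changes ran from -0.40 for Ndufs8, an iron-sulfur subunit, to 0.41 for Ndufv2, which lies beside the NADH site, and 4 of the 7 were above 0. Ndufv1, the subunit that binds NADH and the flavin FMN, had levels of 39.9 and 33.8 CPM in control tissue against 37.2, 35.1 and 25.3 CPM in Ghr deletion tissue. Deletion 3 was the low library, and the other 4 lay close together. Ndufs1, the largest iron-sulfur subunit, had 41.3 and 60.9 CPM in control tissue against 58.5, 69.6 and 57.5 CPM in Ghr deletion tissue. Control 1 was low there and control 2 lay inside the deletion range.

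Accessory subunits surround the core and steady the complex. Ndufa12 had the smallest p of all respiratory chain genes. Its levels were 13.9 and 13.4 CPM in control tissue against 22.0, 28.5 and 18.5 CPM in Ghr deletion tissue, a mean of 13.6 ± 0.35 (SD, n = 2) against 23.0 ± 5.04 (SD, n = 3). Every deletion library was above both controls, and the log2 fold change was 0.76 (edgeR quasi-likelihood, SE 0.32, adjusted p = 0.991), with a 95% interval of -0.01 to 1.52. Leaving out single libraries moved it between 0.57 and 0.88. Ndufa12 (ENSMUSG00000020022) lies on the plus strand of chromosome 10, from 94198720 to 94221443 in GRCm38.

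Ndufa1, a small membrane subunit encoded on the X chromosome, went the other way. Its levels were 55.8 and 40.5 CPM in control tissue against 29.1, 37.3 and 31.7 CPM in Ghr deletion tissue, and the groups did not overlap. The log2 fold change was -0.56 (edgeR quasi-likelihood, SE 0.28, adjusted p = 0.995), with a 95% interval of -1.24 to 0.12. It was -0.31 without control 1, the highest library. Scaled by TPM (length-scaled abundance) in place of counts it turned to 0.52, where the median of all genes was 0.54. Ndufa1 (ENSMUSG00000016427) lies on the minus strand from 37187588 to 37191163 of the X chromosome in GRCm38.

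Ndufa13, an accessory subunit also known as GRIM-19, had 32.0 and 29.0 CPM in control tissue against 27.1, 27.6 and 15.8 CPM in Ghr deletion tissue. The groups did not overlap, but 2 of the 3 deletion libraries were within 2 CPM of the lower control. Its log2 fold change was -0.38 (SE 0.34), and -0.17 without deletion 3. With TPM in place of counts it was 0.59, close to the median of all genes on that scale. Ndufa10 had 29.7 and 32.4 CPM in control tissue against 40.5, 53.7 and 29.7 CPM in Ghr deletion tissue, so deletion 3 matched control 1. Ndufb9, of the membrane arm, had 40.4 and 48.7 CPM in control tissue against 47.2, 73.3 and 37.2 CPM in Ghr deletion tissue, and deletion 2 was the library apart.

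By level per length, Ndufa1 and Ndufb9 had the highest mean TPM of complex I (140 and 88.6) and Ndufa11 the lowest (2.80). Ndufa11 is transcribed from the strand opposite Vmac, and how the counting used strand is not given in the sources used here. The 8 Ndufaf assembly factors had low levels of at most 13.9 CPM in any library and a median log2 fold change of -0.05, with 3 above and 5 below 0. Ndufaf7 had the smallest p of those above 0, with 10.4 and 11.6 CPM in control tissue against 12.9, 12.7 and 13.9 CPM in Ghr deletion tissue. Its groups did not overlap, and the log2 fold change was 0.26 (SE 0.31). Ndufaf4 had the smallest p of those below 0, with a log2 fold change of -0.26 (SE 0.38) and overlapping groups.

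Complex II, which is also the succinate dehydrogenase of the tricarboxylic acid cycle, has all of its 4 subunits encoded in the nucleus. All 4 had log2 fold changes above 0, with a median of 0.23, which was 0.03 without deletion 2. Sdha, the FAD-binding subunit that oxidizes succinate, had 118 and 157 CPM in control tissue against 175, 194 and 172.9 CPM in Ghr deletion tissue, a mean of 137 ± 27.6 (SD, n = 2) against 181 ± 11.8 (SD, n = 3). All 3 deletion libraries were above both controls, and unlike most subunit genes Sdha was not lowest in deletion 3. Its log2 fold change was 0.40 (SE 0.28; edgeR quasi-likelihood, adjusted p = 0.995), and 0.21 without control 1.

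Sdhb, the iron-sulfur subunit, had 32.9 and 19.5 CPM in control tissue against 30.1, 42.3 and 16.6 CPM in Ghr deletion tissue. Deletion 2 was the highest and deletion 3 the lowest, so the groups overlapped fully. The membrane anchor Sdhc had 34.4 and 38.8 CPM in control tissue against 39.3, 39.4 and 34.4 CPM in Ghr deletion tissue, the narrowest spread of the 4. The other anchor, Sdhd, had 32.3 and 43.4 CPM in control tissue against 43.1, 60.0 and 35.0 CPM in Ghr deletion tissue. Sdha and Sdhd had the highest mean TPM of the complex and Sdhc the lowest.

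Complex III had 8 tested genes, 5 above and 3 below 0, with a median log2 fold change of 0.23 that was -0.12 without deletion 2. Its subunit gene Cyc1 falls outside the name rule, is not among the 8 and is given further below. Uqcrb, a small subunit also called ubiquinone-binding protein, had 30.9 and 51.9 CPM in control tissue against 49.1, 76.2 and 52.0 CPM in Ghr deletion tissue, with deletion 2 high and control 1 low. Its log2 fold change was 0.51 (SE 0.36). The core protein gene Uqcrc2 had 70.5 and 84.7 CPM in control tissue against 91.7, 137 and 84.5 CPM in Ghr deletion tissue, and deletion 3 lay at the level of control 2. The Rieske iron-sulfur protein gene Uqcrfs1 had 35.6 and 41.1 CPM in control tissue against 43.0, 82.8 and 27.6 CPM in Ghr deletion tissue, the deletion group spanning both controls.

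The 3 complex III genes below 0 were Uqcr11 at -0.43 (SE 0.51), Uqcrq at -0.41 (SE 0.56) and Uqcrc1 at -0.01 (SE 0.34). Uqcr11, a small subunit, had 19.3 and 12.6 CPM in control tissue against 15.5, 14.5 and 5.51 CPM in Ghr deletion tissue. Deletion 3 alone lay below the controls there. Uqcrq had the lowest mean TPM of the complex (8.24), with 5.86 CPM in control 1 against 2.18 to 3.50 CPM in the other 4 libraries. Uqcrh, the hinge protein gene, and Uqcrb had the highest mean TPM of the complex.

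Complex IV, cytochrome c oxidase, has some subunits encoded by pairs of genes, one used in most tissues and one used in muscle, testis or low oxygen. All 12 genes of the broadly used forms had log2 fold changes above 0, from 0.05 for Cox7b to 0.59 for Cox7a2l, with a median of 0.32, and all 12 were highest in deletion 2. Over the 14 tested genes of the complex the median was also 0.32, and 0.12 without deletion 2. Ndufa4, named for complex I but a subunit of complex IV, had the smallest p of the complex. Its levels were 37.2 and 49.4 CPM in control tissue against 55.9, 77.6 and 48.1 CPM in Ghr deletion tissue, and only deletion 3 reached down to the controls. The log2 fold change was 0.48 (SE 0.32; edgeR quasi-likelihood, adjusted p = 0.995).

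Cox8a had 27.3 and 37.1 CPM in control tissue against 43.8, 67.5 and 32.2 CPM in Ghr deletion tissue, a log2 fold change of 0.57 (SE 0.39). Deletion 3 lay between the controls. Cox7a2l, a subunit 7a relative that helps join complexes III and IV into supercomplexes, had 59.8 and 103 CPM in control tissue against 105, 184.95 and 76.8 CPM in Ghr deletion tissue. Control 2 lay at the level of deletion 1, and control 1 below all the others. Cox4i1 had 104 and 97.6 CPM in control tissue against 143, 157 and 66.8 CPM in Ghr deletion tissue. The controls were alike, while the deletion libraries fell on both sides of them. Cox6c, with Cox4i1 the highest of the complex by mean TPM, had 55.4 and 90.4 CPM in control tissue against 85.5, 112 and 64.9 CPM in Ghr deletion tissue.

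The tissue forms were nearly absent. Cox7b2, the testis form of subunit 7b, had 0 counts in all 5 libraries, where 3 counts stand for 0.128 and 0.145 CPM in control tissue against 0.105, 0.0940 and 0.0557 CPM in Ghr deletion tissue. Cox6a2, the heart and skeletal muscle form of subunit 6a, had 0 counts in both controls and 1, 0 and 1 in the deletion libraries. Cox8b, a muscle form of subunit 8, had 2 counts in deletion 2 and 0 in the other 4 libraries, and Cox8c, a testis form, had 3 counts in deletion 1, 1 in deletion 2 and 0 in the others. Cox6b2, the testis form of subunit 6b, had 3 and 5 counts in control tissue against 16, 5 and 11 in Ghr deletion tissue. Its log2 fold change of 0.71 carried an SE of 0.99.

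Cox7a1, the muscle form of subunit 7a, was the only tissue form with over 10 counts in every library. It had 14 and 23 counts in control tissue against 33, 24 and 30 in Ghr deletion tissue, which is 4.28% and 7.01% of the summed TPM of Cox7a2 and Cox7a1 in control tissue against 5.69%, 2.72% and 3.99% in Ghr deletion tissue. The shares of the 2 groups overlapped, and as shares of counts they were 1.89% and 3.02% against 2.53%, 1.20% and 1.80%. The 8 skeletal muscle markers summed to 33.7 and 6.87 CPM in control tissue against 67.9, 4.04 and 8.98 CPM in Ghr deletion tissue, and the 5 smooth muscle markers were highest in deletion 1 and lowest in deletion 2, as the Cox7a1 share was within the deletion group. The 5 testis germ cell markers summed to 1.24 and 1.89 CPM in control tissue against 6.06, 3.70 and 0.891 CPM in Ghr deletion tissue, highest in deletion 1, where Cox6b2 also had its most counts. Nearly all of that came from Acrv1, and Tnp1 had 0 counts in all libraries. The part of other cell types in these forms was not tested.

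Cox4i2 and Ndufa4l2, forms known to rise in low oxygen, were lower in the deletion libraries at counts near the floor. Cox4i2 had 6 and 8 counts in control tissue against 1, 1 and 5 in Ghr deletion tissue, or 0.244% and 0.376% of the summed TPM of Cox4i1 and Cox4i2 in control tissue against 0.0262%, 0.0199% and 0.128% in Ghr deletion tissue. Ndufa4l2 had 4 and 10 counts in control tissue against 3, 0 and 1 in Ghr deletion tissue. Neither passed the filter on low counts, so neither was tested in the fit of all 5 libraries.

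**Figure D3:**
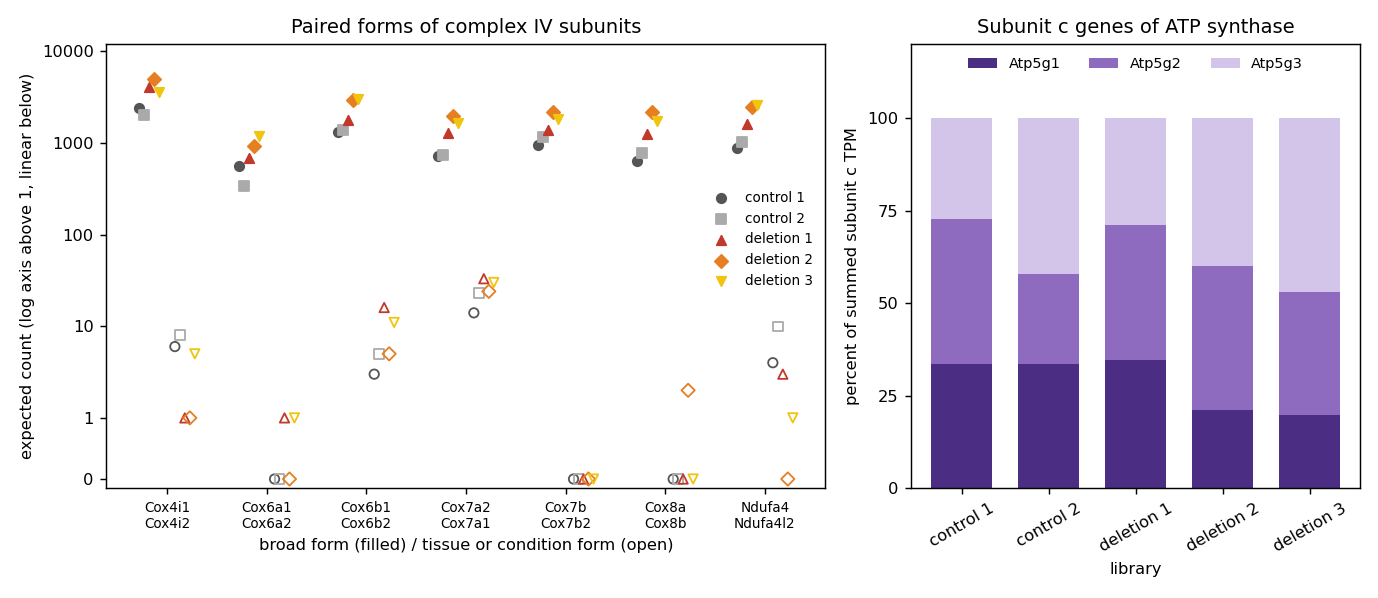
Left, expected counts of each pair of complex IV forms in the 5 libraries, with the broadly used form filled and the tissue or low-oxygen form open, on a log axis above 1 count; right, share of each of 3 genes in the summed TPM of subunit c. The open points lie at 33 counts or fewer, and the Atp5g1 share is 21.0% and 19.8% in deletion 2 and deletion 3.

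Complex V had 16 tested subunit genes, 10 above and 6 below 0, with a median log2 fold change of 0.23 that was -0.07 without deletion 2. The catalytic head holds 5 kinds of subunit. Atp5b, the catalytic beta subunit, had the highest mean TPM of the complex and 341 and 343 CPM in the controls against 386, 489 and 328 CPM in the deletion libraries. The controls lay between deletion 1 and deletion 3, and the log2 fold change was 0.23 (SE 0.33). Atp5a1, the alpha subunit, also had a log2 fold change of 0.23, from 262 and 288 CPM in the controls against 321, 383 and 261 CPM in the deletion libraries. Atp5c1, the central stalk subunit gamma, had a log2 fold change of 0.33 (SE 0.32).

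Atp5mpl, a small proteolipid of the membrane part, had the largest fold change of any subunit gene. Its levels were 13.3 and 17.2 CPM in control tissue against 20.5, 35.5 and 22.0 CPM in Ghr deletion tissue, a mean of 15.3 ± 2.75 (SD, n = 2) against 26.0 ± 8.29 (SD, n = 3). All 3 deletion libraries were above both controls. The log2 fold change was 0.77 (edgeR quasi-likelihood, SE 0.37, adjusted p = 0.995), with a 95% interval of -0.11 to 1.64, and it was 0.48 without deletion 2. Atp5mpl (ENSMUSG00000021290) is a minus-strand gene of chromosome 12, from 111961375 to 111966977 in GRCm38. The subunits of the peripheral stalk, Atp5f1, Atp5h, Atp5j and Atp5o, had fold changes between -0.03 and 0.29.

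Atp5g1, Atp5g2 and Atp5g3, whose promoters are printed above, encode subunit c, which forms the rotating ring. All 3 had log2 fold changes below 0, of -0.50 (SE 0.38), -0.001 (SE 0.44) and -0.01 (SE 0.34). Atp5g1 had 40.2 and 35.0 CPM in control tissue against 36.6, 26.6 and 16.7 CPM in Ghr deletion tissue. Deletion 1 lay between the controls and the other 2 deletion libraries below them, and without deletion 3 the fold change was -0.26. With TPM in place of counts it was 0.38, below the median of all genes on that scale. Its share of the summed subunit c TPM was 33.5% and 33.4% in control tissue against 34.7%, 21.0% and 19.8% in Ghr deletion tissue. The share of Atp5g3 was 27.2% and 42.0% in control tissue against 29.0%, 39.9% and 47.1% in Ghr deletion tissue, and that of Atp5g2 was 39.3% and 24.5% against 36.3%, 39.1% and 33.2%. The groups overlapped for all 3 shares.

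The subunit genes stood in a similar order of level in every library. The rank correlation of TPM divided by the median subunit TPM of the library lay between 0.87 and 0.97 for each pair of libraries, over 78 genes that share each library and are not replicates. Complex I made up 31.3% and 28.4% of the summed subunit TPM in control tissue against 28.3%, 27.7% and 26.5% in Ghr deletion tissue. The share of complex IV was 22.1% in control 1 and 25.6% to 26.8% in the other 4 libraries. Uqcrh was the highest subunit gene in deletion 2 and deletion 3, while Ndufa1, Cox6c and Cox4i1 were highest in control 1, control 2 and deletion 1. Uqcrh stood at 3.66 and 5.17 times the median subunit TPM in control tissue against 3.64, 5.20 and 6.66 times in Ghr deletion tissue. Atp5b stood at 4.83 and 4.41 times against 4.56, 4.45 and 5.90 times. At the low end, the tissue form Cox6b2 stood between 0.008 and 0.027 times the median. Cox7a1 stood between 0.051 and 0.128 times and Ndufa11 between 0.051 and 0.108 times.

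On this scale, which sets aside the level shared by all subunit genes in a library, 3 of 78 genes were higher in every deletion library (Ndufa10, Ndufa12 and Cox7a2) and 11 were lower (Ndufa1, Ndufa13, Ndufa3, Ndufa8, Ndufs6, Ndufs8, Ndufv1, Uqcr10, Uqcr11, Atp5e and Atp5g1). Over all tested genes on the same scale, 4.63% were higher and 8.89% were lower. This scale was chosen after seeing the data and was not tested. Ndufa1 stood at 4.97 and 4.08 times the median in control tissue against 2.31, 2.24 and 3.82 times in Ghr deletion tissue. Ndufa12 stood at 0.65 and 0.72 times in control tissue against 0.92, 0.94 and 1.15 times in Ghr deletion tissue. Sdha and Atp5mpl, whose scaled counts did not overlap between groups, overlapped on this scale.

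The levels of subunit genes in single libraries varied with the base composition of the transcripts, in directions that crossed the groups. Across the 78 subunit genes, mean transcript GC ran from 41.3% to 60.8%. The correlation of a gene's deviation with its GC was 0.57 and -0.41 in control tissue against 0.54, -0.26 and -0.53 in Ghr deletion tissue. Across all tested genes the same correlations were 0.18 and -0.16 in control tissue against 0.05, 0.01 and -0.16 in Ghr deletion tissue. Control 1 and deletion 1 thus had relatively more of the GC-rich subunit transcripts, and the other 3 libraries fewer. In control 1 the median deviation was -0.27 for the 26 subunit genes of lowest GC and 0.25 for the 26 of highest GC, and in deletion 3 it was -0.24 and -0.60. The median log2 fold change was 0.26 in the low-GC genes and 0.02 in the high-GC genes. The correlation of log2 fold change with GC was -0.32 across subunit genes and -0.06 across all tested genes. Of the 11 genes lower on the scale relative to the median subunit TPM, 7 were among the 26 of highest GC, 3 were in the middle and 1, Ndufa1 with a GC of 47.5%, was among the 26 of lowest GC. Of the 3 higher genes, 0 were among the 26 of highest GC. The GC-rich genes Cox6a1 and Cox8a, at 60.8% and 58.6%, had log2 fold changes above 0. These points are genes of the same 5 libraries, and the part of GC in the fold changes was not tested.

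**Figure D4:**
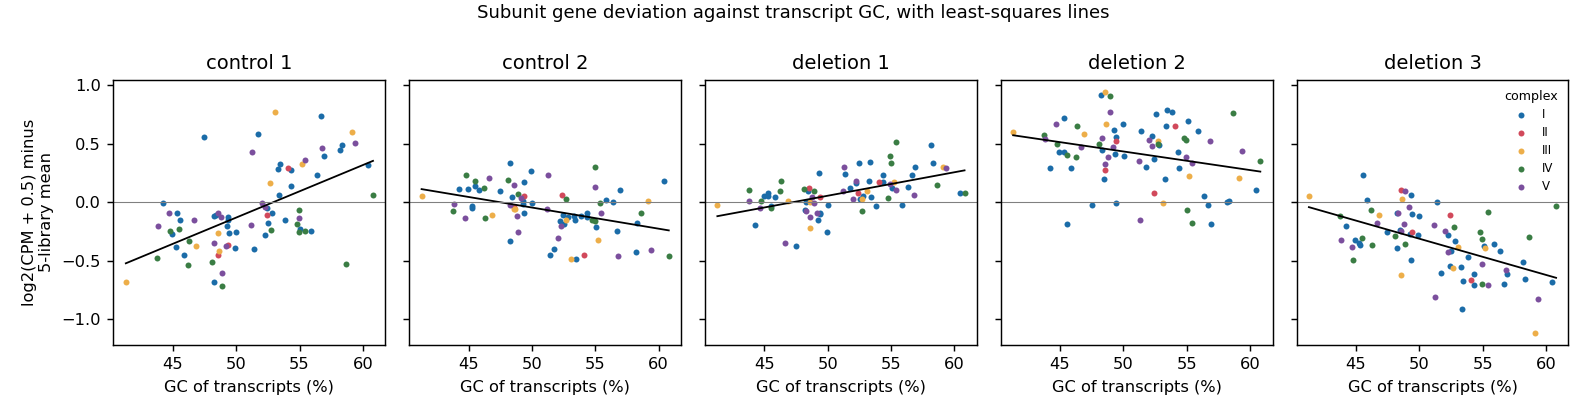
Deviation of each of 78 subunit genes from its 5-library mean, in log2(CPM + 0.5), against the mean GC of its transcripts, 1 panel a library, coloured by complex, with least-squares lines. The line rises in control 1 and deletion 1 and falls in the other 3 libraries.

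The 13 subunits encoded in the mitochondrial genome did not follow the nuclear ones. All 13 had log2 fold changes below 0, with a median of -0.38 and a range of -1.44 to -0.10, and all 13 were highest in control 1. None passed the test, and 0 of 13 had an unadjusted p under 0.05 (edgeR quasi-likelihood), beside 4.92% of all tested genes. The summed TPM of the 13 was 5.45 and 2.11 times that of the 84 nuclear subunit genes in control tissue against 2.59, 2.49 and 2.59 times in Ghr deletion tissue. Control 1 alone stood apart, and control 2 lay below all 3 deletion libraries. With Gm28437, a nuclear copy of mt-Co1 that can share its reads, added to the 13 genes, the ratios were 7.53 and 2.91 against 3.71, 3.54 and 3.56. Single genes varied widely, and mt-Co2 ran from 2.78 CPM in deletion 3 to 50.6 CPM in control 1. The 13 genes together held 8975 CPM in control 2 to 22033 CPM in control 1, so mt-Co2 was a very small part. Whether nuclear copies share the reads of mt-Co2 was not tested, and its level is uncertain.

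**Figure D5:**
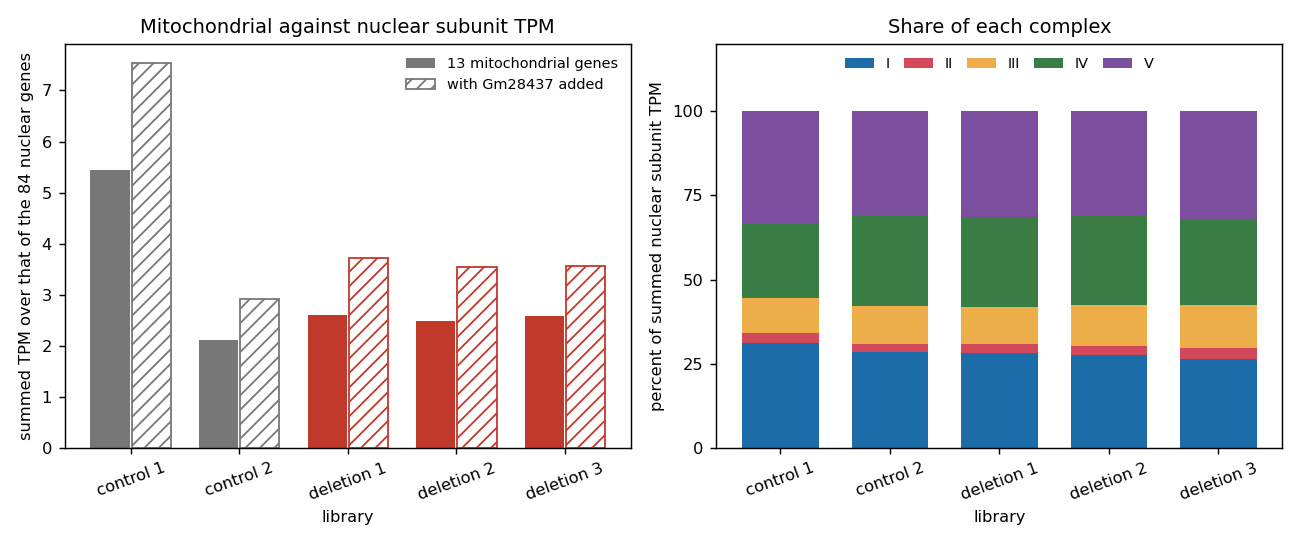
Left, summed TPM of the 13 mitochondrially encoded subunits divided by that of the 84 nuclear subunit genes, with and without Gm28437; right, share of each complex in the summed nuclear subunit TPM. Control 1 has the highest ratio, 5.45 against 2.11 to 2.59, and the lowest share of complex IV.

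For genes of the chain outside the name rule and genes that supply or control it, list medians lay near 0 while single genes varied more. In each list 0 genes were called (edgeR quasi-likelihood). Cyc1, the cytochrome c1 subunit of complex III, had a log2 fold change of 0.23 (SE 0.36). The carrier Cycs, cytochrome c, had 0.20 (SE 0.28), and Atpif1, an inhibitor of the ATP synthase, -0.32 (SE 0.30). The median was 0.07 over 38 tested assembly factors, -0.01 over 11 genes of coenzyme Q synthesis, 0.08 over 14 of the tricarboxylic acid cycle, 0.09 over 78 of the mitochondrial ribosome and 0.12 over 76 of the cytosolic ribosome. Unadjusted p-values under 0.05 were seen for 0, 0, 0, 1 and 1 of their genes (edgeR), beside 4.92% of all tested genes. Of 12 regulators of mitochondrial gene expression, 8 were above 0 and the median was 0.09. Nrf1 and Gabpa, whose motifs are named above, had log2 fold changes of 0.12 (SE 0.30) and 0.29 (SE 0.31), and Tfam, which packages mitochondrial DNA, 0.33 (SE 0.30).

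Pprc1, a coactivator related to PGC-1, was the 1 regulator of 12 with an unadjusted p under 0.05 (edgeR), beside 4.92% of all tested genes. It had 28.0 and 19.9 CPM in control tissue against 12.7, 7.64 and 14.2 CPM in Ghr deletion tissue. All 3 deletion libraries were below both controls, which held for 10.2% of all tested genes. Its log2 fold change was -1.06 (SE 0.38; edgeR quasi-likelihood, adjusted p = 0.991). Ppargc1a, the coactivator PGC-1 alpha, had 2.10 and 6.78 CPM in control tissue against 7.47, 3.95 and 12.1 CPM in Ghr deletion tissue, and its groups overlapped. Esrra, a nuclear receptor that acts with PGC-1, had a log2 fold change of -0.84 (SE 0.50).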

How the data were processed

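Per the labels' protocols, total RNA of frozen tissue from 5 mice went into TruSeq stranded libraries. The tools listed in the submitters' processing notes are bcl2fastq 2.20.422, STAR 2.5.3a and RSEM 1.3.0, with GRCm38 as the build. Neither annotation release nor strand setting is given in the sources used here. Per the file headers, the authors deposited expected counts (RSEM estimates without normalization) and TPM, scaled by the authors to transcript length and to the library as a whole. Small structural RNAs (7SL and 7SK) held 29.9% to 70.6% of the TPM, so TPM served for ranks, shares and ratios within a library, and between libraries only in the alternative fit on log2(TPM + 1), where the median of all genes also moves. Of 51912 gene IDs, 279 had no symbol in the name table and 51719 were in GENCODE M21, which gave positions, biotypes and transcript GC. RSEM splits reads shared with pseudogene copies, so levels of genes with such copies are uncertain, and of the 93 genes 3 overlap another gene on the same strand and 28 on the opposite strand.

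Expected counts were rounded to whole numbers and analysed in R 4.3.3 with edgeR 4.0.16 and limma 3.58.1. After filterByExpr by group (18615 genes), TMM factors (control 0.491, 1.50; deletion 1.00, 0.843, 1.61) scaled the libraries, and a robust quasi-likelihood model of group alone was fitted and tested with glmQLFTest. The threshold was an adjusted p of 0.05 by Benjamini-Hochberg over every tested gene. Alternatives used DESeq2 1.42.0, limma-voom, limma on log2(TPM + 1), RLE, upper quartile or no composition factors, no filter, libraries left out and a replicate block. CPM use library sizes multiplied by these factors. Intervals cover 95%. A count of 3 was the floor for undetected genes, and floors cover counting error only. With 2 controls, the spread between libraries sets the precision.

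The members, gene lists and tests were chosen with earlier results of these data known. Named genes were, in each complex, the 2 of highest and the 1 of lowest mean TPM and the 2 tested genes of smallest p in each direction, together with the paired forms of complex IV, the subunit c genes, complex II in full, 1 Ndufaf gene in each direction and Ghr. Further genes were named as examples of their role after their values were seen. The looser NRF1 motif, the scale relative to the median subunit TPM and the joint leaving out of control 1 and deletion 2 were added after seeing the data. Promoter sequences are from RefSeq, build GRCm38.p6.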

Additional observations from a re-analysis of the deposited data

How the results depend on the processing

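Of the respiratory chain genes, 0 were called under any of 15 alternatives, and 1, Ndufa12 with upper quartile factors, had an unadjusted p under 0.05. Counts called over all genes were 166 with DESeq2, 46 with total counts only, 11 with limma on log2(TPM + 1), 85 with control 1 and deletion 3 both left out, and 0 to 48 with single libraries left out. On log2(TPM + 1) the median log2 fold change was 1.22 over subunit genes and 1.14, 1.19, 1.26, 1.299 and 1.22 over complexes I to V, where that of all genes was 0.54; the cause was not tested. With total counts only it was 0.31 over subunit genes and 0.23 over all genes. Leaving out single libraries gave medians of -0.02 to 0.35, and leaving out control 1 and deletion 2 together gave -0.06, with 31 of 78 above 0. Of 36 tested named genes, 12 had the same sign under all 15 alternatives, among them Ndufa12, Sdha and Atp5mpl. On log2(TPM + 1) all 78 subunit genes were above 0. A subunit gene below 0 in the main fit therefore could not keep its sign, and the count does not compare the 2 directions. Of 540 recomputed values, 73 changed sign, none of them called.

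Whether the replicate numbers of the titles pair the libraries could not be decided. Across genes, the correlation of deviations from the group mean was 0.18 for the libraries numbered 1 and -0.14 for those numbered 2. With 2 controls, the deviations of control 1 and control 2 mirror each other. Each correlation with control 2 is therefore that with control 1 with its sign reversed, as 0.18 and -0.18 for deletion 1. With the replicate block, 8 genes were called over all genes, 0 of the respiratory chain, and the subunit median was 0.35. With 2 controls, the 95% interval of a subunit gene's log2 fold change reached a median of 0.87 to each side.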

Other observations

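Among the ribosome genes set beside the respiratory chain, Rps27, a protein of the small cytosolic subunit, had 135 and 162 CPM in control tissue against 286, 498 and 234 CPM in Ghr deletion tissue. All 3 deletion libraries were above both controls, which held for 9.43% of all tested genes. The log2 fold change was 1.19 (SE 0.42, edgeR quasi-likelihood, adjusted p = 0.991). Mrps18a, of the mitochondrial ribosome, had 108 CPM in control 1 and 28.1 CPM in control 2, against 21.7, 26.6 and 27.8 CPM in the deletion libraries. Its groups did not overlap, with deletion lower, which held for 10.2% of all tested genes. Control 2 was within 1 CPM of deletion 3, and the log2 fold change was -1.42 (SE 0.53, edgeR, adjusted p = 0.991). Both genes were named after their values were seen.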
